A study of Homo sapiens with 8 samples.

Results

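bktRNA1 is an RNA whose first 146 nt overlap the snoRNA gene SNORA12 and whose remaining 105 nt, a 3' extension, carry kink-turn boxes. It was taken by its name in the deposited reactivity table, where it is 1 of 14 RNAs and makes up 19.6% of 1279 nt. The libraries came from HEK293T, a human embryonic kidney cell line, that stably overexpressed FLAG-15.5K, a tagged form of the kink-turn binding protein SNU13. RNA bound to anti-FLAG beads was treated with NAI-N3, a SHAPE reagent that marks flexible nucleotides, in 4 libraries, or with its solvent DMSO in 4 control libraries. All 8 libraries share the tagged protein, so the profile describes RNA that co-purified with an overexpressed protein, after depletion of ribosomal RNA, snRNA and some abundant snoRNAs. For each nucleotide the authors' table gives a single reactivity score for the whole series, with no stated unit and none for a single library. The spread between replicates and the depth behind a score were therefore unknown, and no comparison between nucleotides was tested. Errors below are standard deviations (SD) over nucleotides of this RNA, which share their libraries and are not replicates.

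Box H/ACA snoRNAs guide the change of uridine to pseudouridine. They fold into a pair of hairpins joined by a hinge that holds the H box (ANANNA), and they end shortly after an ACA box. An internal loop in a hairpin holds the strands that pair with the target RNA. Box C/D RNAs instead carry box C (RUGAUGA, R is A or G) and box D (CUGA), which pair through their G and A bases into a sharply bent kink-turn bound by SNU13. In bktRNA1 both kinds of sequence lie in 1 RNA, with box D upstream of box C.

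On hg38, bktRNA1 covered chr10:100237051-100237301 on the minus strand. It lay within the span of the protein-coding gene CWF19L1 (chr10:100232298-100267638), which RefSeq places on the same strand. RefSeq lists SNORA12 at chr10:100237156-100237302. Its span begins 1 nt before bktRNA1 and covers nt 1 to 146, named here the H/ACA part, and nt 147 to the 3' end are the extension. Exons and introns of these genes were not used here. The H/ACA part is printed first, with the H box and the ACA box in capitals. The next 3 lines show the regions whose loops carry most of the high scores. Capitals mark nucleotides predicted to be unpaired in the H/ACA layout, a fold explained with the 3' hairpin region. In that layout the stretch named extension hairpin is branched. Its nt 148 to 153 pair with nt 203 to 208. These pairs enclose a hairpin with its loop at nt 165 to 172 and another with its loop at nt 187 to 192.
H/ACA part, nt 1 to 146: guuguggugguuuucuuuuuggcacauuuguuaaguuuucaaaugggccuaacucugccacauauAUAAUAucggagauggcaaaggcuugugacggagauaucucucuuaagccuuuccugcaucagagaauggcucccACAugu
5' hairpin, nt 3 to 62: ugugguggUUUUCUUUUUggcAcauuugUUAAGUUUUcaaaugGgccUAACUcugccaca
3' hairpin region, nt 72 to 140: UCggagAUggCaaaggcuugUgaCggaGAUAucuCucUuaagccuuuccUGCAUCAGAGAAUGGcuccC
Extension hairpin, nt 148 to 208: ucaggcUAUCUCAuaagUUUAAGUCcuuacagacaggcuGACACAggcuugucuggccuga

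Scores in the H/ACA part were concentrated in a few sharp peaks between near-silent stretches, while those in the extension were lower at their highest and more evenly spread. The H/ACA part held 15 nt above 0.05, which carried 66.8% of its summed score. The extension held 3 such nt, which carried 20.5%. The mean was 0.0116 ± 0.0253 (SD over 146 nt) in the H/ACA part and 0.0102 ± 0.0150 (105 nt) in the extension. Their difference, 0.00145, was 0.000366 without G128 alone. The medians lay in the opposite order, at 0.00109 and 0.00433. Scores below 0.001 made up 48.6% of the H/ACA part and 25.7% of the extension. Scores above 0.01 made up 24.0% (Wilson 95% interval 17.8 to 31.5, counting nucleotides as independent) and 34.3% (25.9 to 43.8). The bound of 0.05 was chosen with these profiles in view, and at 0.03 the counts were 19 in the H/ACA part and 8 in the extension. The highest nucleotides just under it were G130 at 0.0443, G152 at 0.0434 and nt 232 at 0.0424.

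**Figure D1:**
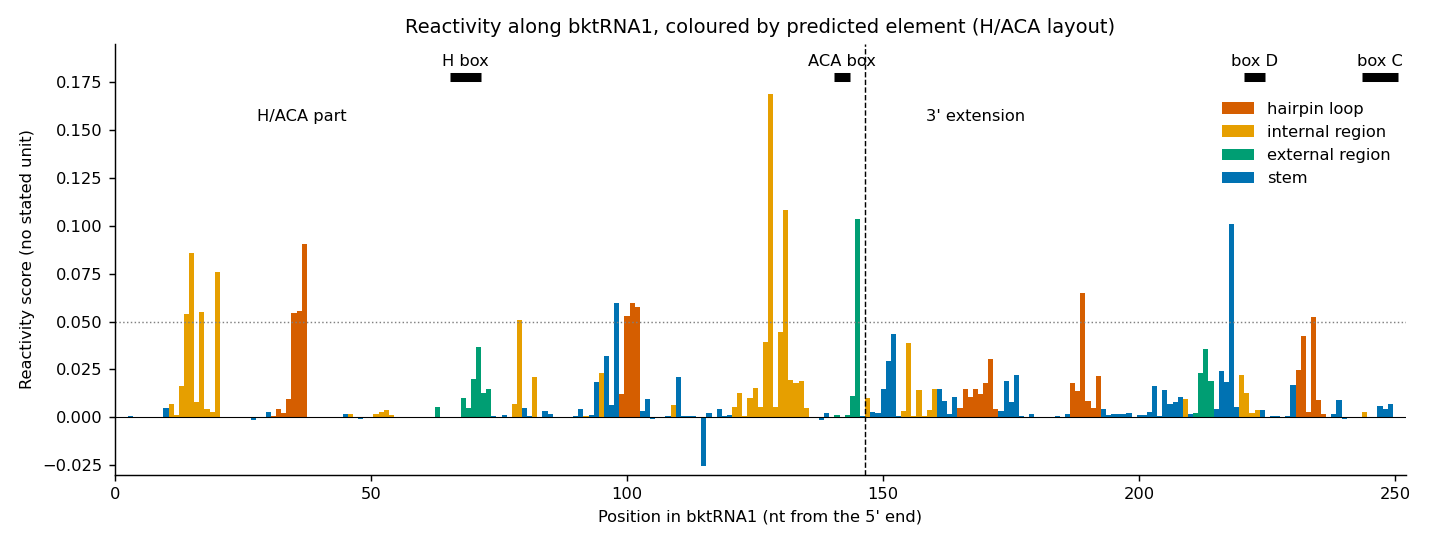
Reactivity score (no stated unit) of each nucleotide against its position in bktRNA1, coloured by the element predicted in the H/ACA layout described in the text. Black bars mark the boxes, the dashed line the end of the SNORA12 span at nt 146 and the dotted line a score of 0.05. The 15 peaks above 0.05 in the H/ACA part stand in groups near nt 15, 36, 100 and 130 and singly at nt 79 and 145, and the extension has 3 such peaks, at nt 189, 218 and 234.

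The 5' hairpin of the H/ACA layout had reactive loops on silent stems. Its 3 predicted helices averaged 0.000308 (nt 3 to 10 with 55 to 62), -0.000262 (nt 21 to 23 with 47 to 49) and 0.000260 (nt 25 to 30 with 40 to 45). No nucleotide of these helices exceeded 0.00468. The same helices were predicted with the whole RNA folded. With nt 1 to 146 folded alone, however, nt 58 to 62 lay in a loop and nt 11 to 18 in a stem. The terminal loop, nt 31 to 39, averaged 0.0243 ± 0.0337 (SD over 9 nt), and its high scores lay in the middle. G35 scored 0.0546, U36 0.0557 and U37 0.0905, whereas the next bases, U38 and U39, scored 0.000278 and 0.000187. The first 4 bases of the loop ran from 0.000962 at U31 to 0.00940 at A34. Nt 38 to 62, which take in the end of this loop, the descending strands and the 3' side of the internal loop, formed the longest run below 0.005, with a mean of 0.000494 over 25 nt.

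The internal loop of the 5' hairpin in the H/ACA layout was reactive on 1 side only. In the uridine-rich 5' strand, nt 11 to 20, the mean was 0.0311 ± 0.0330 (SD over 10 nt). C15 was highest at 0.0859, followed by U20 at 0.0758, U17 at 0.0549 and U14 at 0.0542. Between these peaks the score was 0.00815 at U16, 0.00452 at U18 and 0.00278 at U19, so neighbouring bases of 1 strand differed widely. The 3' strand of the same loop, nt 50 to 54, averaged 0.00191 ± 0.00143 (5 nt) and peaked at 0.00372 at C53. In known H/ACA RNAs both strands of such a loop can pair with a target. Whether this loop does was not examined here.

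Scores in the hinge between the hairpins were highest at its 3' end. ANANNA matched at nt 64 to 69 and at nt 66 to 71, 2 overlapping matches, and again at nt 127 to 132 inside the 3' hairpin region. Over the 14 RNAs, 12 of 1209 windows of 6 nt held the motif (0.993%). In the match at nt 66 to 71, A66 scored -0.000198, U67 0.000305, A68 0.0102, A69 0.00495, U70 0.0200 and A71 0.0368. The bases before it, U63 to U65, reached 0.00547. The ACA box at nt 141 to 143, which ends 3 nt before the end of the SNORA12 span, was flat. Its bases scored 0.00108, 0.000405 and 0.00118. G145, the second base after it, scored 0.104, exceeded in the RNA only by the peaks at G128 and A131, between U144 at 0.0111 and U146 at 0.000787. ACA itself occurred 7 times in bktRNA1, and its other copies ranged in mean from -7.6e-05 at nt 24 to 0.0292 at nt 188.

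The 3' hairpin region, nt 72 to 140, held the highest score of the 14 RNAs, 0.169 at G128. A131 reached 0.108, and G130 at 0.0443 and A127 at 0.0394 stood beside them. A129, between the pair of highest bases, scored 0.00541. A second group lay at nt 98 to 102, with A98 at 0.0599, A100 at 0.0530, U101 at 0.0599 and A102 at 0.0574, and G99 at 0.0124 among them. U79 stood alone at 0.0507. The stretches between these groups were quiet, with a mean of 0.00109 over nt 83 to 93 and -0.00150 over nt 111 to 120. The latter includes C115 at -0.0257, the lowest score of the 14 RNAs. The lowest in any other RNA was -0.0222.

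Whether these peaks lay in stems depended on how the RNA was folded. Structures were predicted from sequence alone with minimum free energy. With the whole RNA folded (-86.7 kcal/mol), 8 base pairs joined nt 75 to 82 of the H/ACA part to nt 152 to 159 of the extension. This long-range helix averaged 0.0120, with U79, G152 (0.0434) and A155 (0.0390) in it. G128 and A131 were placed in short helices of 3 pairs each, with means of 0.0388 and 0.0296. G145 was also paired. A second prediction followed the layout of an H/ACA RNA. Nt 1 to 62, nt 72 to 140 and nt 144 to the 3' end were folded separately, with the hinge and the ACA box left single-stranded (-77.6 kcal/mol summed). This layout was chosen after the scores had been seen. It left the 5' hairpin as it was and gave a 3' hairpin closed by nt 74 to 77 with nt 136 to 139 (mean 0.000394). A helix of 9 pairs followed, nt 83 to 91 with nt 110 to 118. Its mean of 0.000761 includes C115 at -0.0257, which lowers it, and U110 at 0.0209. G128 and A131 then lay in an unpaired stretch, nt 121 to 135, with a mean of 0.0318 ± 0.0464 (15 nt), and G145 lay outside all stems.

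**Figure D2:**
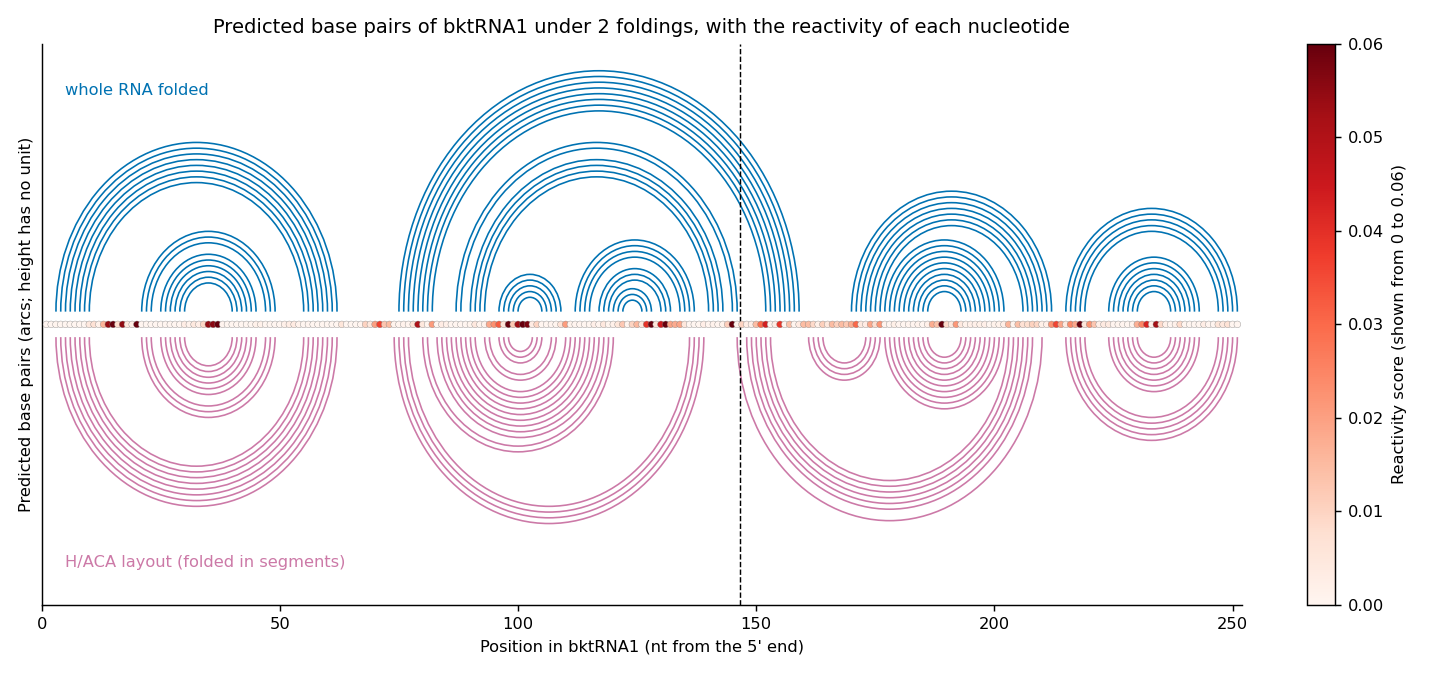
Arcs join the nucleotides predicted to pair when the whole RNA is folded (above) and in the H/ACA layout (below), against position in bktRNA1. Dots show each nucleotide's score from 0 (white) to 0.06 or more (dark red), and the dashed line marks nt 146. Above, 8 arcs from nt 75 to 82 cross that line to nt 152 to 159, and below, only the pair of nt 146 with nt 210 crosses it.

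Within the H/ACA part, the layout separated paired from unpaired nucleotides more widely than the whole fold did. The mean was 0.0216 ± 0.0323 (71 nt) for unpaired and 0.00218 ± 0.00900 (75 nt) for paired nucleotides in the layout. In the whole fold it was 0.0147 ± 0.0229 (62 nt) and 0.00937 ± 0.0268 (84 nt). The area under the ROC curve (AUC), for which 0.5 means no separation, was 0.823 in the layout and 0.684 in the whole fold. It was 0.625 when nt 1 to 146 and the extension were each folded alone (-81.2 kcal/mol summed), a fold that paired U14, C15 and U17. Of the 15 nt above 0.05 in the H/ACA part, 14 were unpaired in the layout and 9 in the whole fold. In the extension the AUC was 0.737, 0.735 and 0.729 in these 3 structures. The whole fold is by definition that of lowest energy. The layout, which had the widest separation, was chosen after the scores had been seen, so its AUC is no independent measure of it. The predictions take no account of protein.

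**Figure D3:**
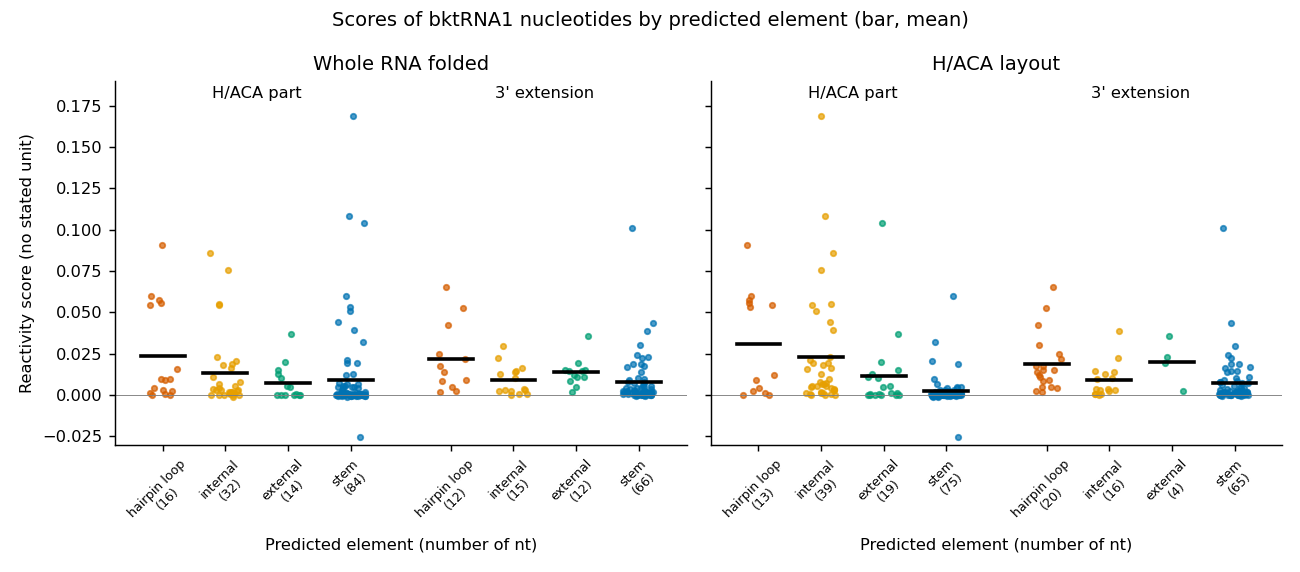
Scores of single nucleotides (points) and their mean (black bars) by predicted element, for the H/ACA part and the 3' extension, with the whole RNA folded (left) and in the H/ACA layout (right). Numbers in brackets count nucleotides. In the H/ACA part, 6 of the points above 0.05 sit in stems on the left and 1 on the right.

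Over the whole of bktRNA1, hairpin loops had the highest mean of the elements in the whole fold. They averaged 0.0229 ± 0.0256 (28 nt), against 0.0120 ± 0.0192 (47 nt) in internal regions (bulges, internal loops and multiloops). The mean was 0.0104 ± 0.0101 (26 nt) in external regions, which lie outside all stems, and 0.00859 ± 0.0223 (150 nt) in stems. By medians external regions were higher than hairpin loops, at 0.0105 against 0.00983, and with both parts folded apart the means of these elements were equal to 3 digits (0.0181). In the layout the hairpin loop mean was 0.0235 and the stem mean 0.00452. Nucleotides paired in all 3 structures numbered 107 and averaged 0.00422 ± 0.0131, with a median of 0.000468. The 64 nt unpaired in all 3 averaged 0.0162 ± 0.0209, with a median of 0.00968. Only A98 and nt 218 passed 0.05 among nucleotides paired in all 3. The predicted probability of being unpaired in the whole fold and the score had a Spearman rho of 0.409 and a Pearson r of 0.189 across all its nucleotides, as a description, since neighbouring nucleotides share stems and libraries.

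The extension opened with uneven scores, ran on at a middling level and then held a long hairpin. Its first 10 nt averaged 0.0147 ± 0.0166, with G151 at 0.0297, G152 at 0.0434 and A155 at 0.0390. Nt 160 to 169, single-stranded in the whole fold, averaged 0.0109 ± 0.00457 (10 nt) and ran from 0.00193 to 0.0150, with no sharp peak. The helix of nt 177 to 186 with nt 193 to 202, 10 pairs predicted in each structure, averaged 0.00127 and stayed at or below 0.00435. Its loop of 6 nt, GACACA, averaged 0.0220 ± 0.0220. C189 was highest there at 0.0651, followed by A192 at 0.0217, G187 at 0.0177 and A188 at 0.0139, while A190 and C191 scored 0.00877 and 0.00491. The helix below it in the whole fold, nt 170 to 176 with nt 206 to 212, averaged 0.0119, above the helix next to the loop, and included U171 at 0.0304.

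The kink-turn part showed a reactive loop on a stem of low scores, between boxes whose means lay below that of the rest of the RNA. Box D, nt 221 to 224, scored 0.0128, 0.00222, 0.00383 and 0.00387 at its successive bases. The successive bases of box C, nt 244 to 250, scored 0.00304, 0.000366, 0.000306, 0.00579, 0.00458, 0.00700 and 0, the last at one of the end positions that were 0 in every RNA. Positions 2 and 3 of box C were thus lower than the next 3. The mean was 0.00568 over box D and 0.00301 over box C, against 0.0111 and 0.0112 over the rest of the RNA. With medians the order turned: box D had 0.00385 and box C 0.00304, both above the medians of the rest of the RNA. No base of either box exceeded 0.0128.

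Between the boxes, nt 224 to 230 were predicted to pair with nt 237 to 243, with a mean of 0.00233. The run from nt 225 to nt 229 scored from 0.000205 to 0.000731, and nt 240 to 243 on the other strand scored from -0.000784 to 7.7e-05. The loop between them, nt 231 to 236, averaged 0.0222 ± 0.0215 (6 nt). Nt 234 scored 0.0526, nt 232 0.0424 and nt 231 0.0248, with nt 233 at 0.00254 among them. Nt 230, predicted to close the loop, scored 0.0170.

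The stretch before box D was among the more reactive of the extension. Nt 211 to 220 averaged 0.0256 ± 0.0285 (10 nt), compared with 0.0104 over the rest of the RNA. Nt 218, the third base before box D, scored 0.101 and was the only base of the extension above 0.10. All 3 structures, which were alike from nt 215 to the 3' end, paired it with nt 248 in box C. The predicted helix, nt 215 to 219 with nt 247 to the 3' end, averaged 0.0171 and takes in bases of box C. None of the structures holds a pair between box C and box D, so the kink-turn itself is not in these predictions. Nt 213 scored 0.0359, nt 216 0.0241 and nt 220, directly before box D, 0.0221. In box C/D snoRNAs the bases before box D hold the guide sequence. No target was examined here. The other 9 bases of this stretch ran from 0.00219 to 0.0359.

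**Figure D4:**
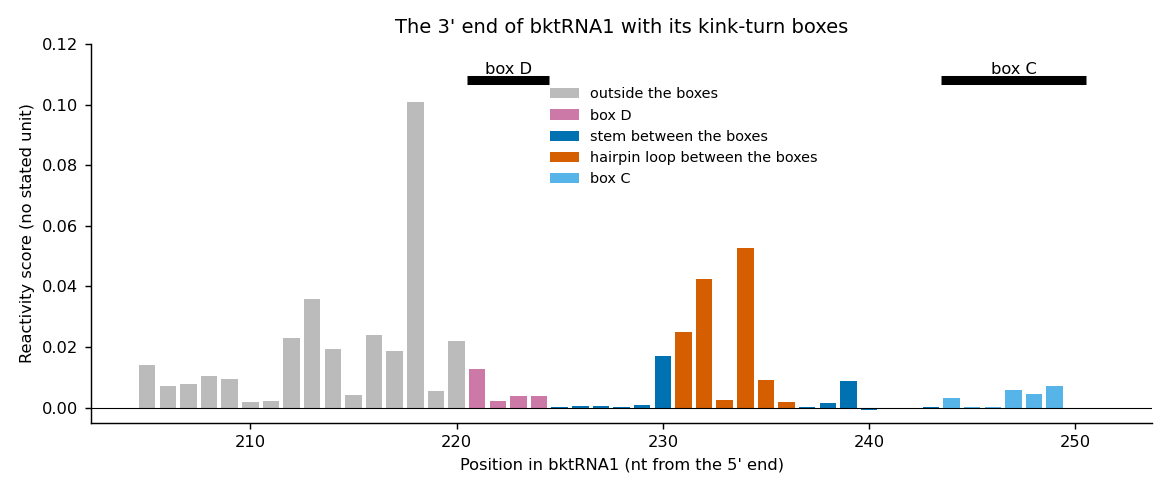
Reactivity score (no stated unit) of each nucleotide from nt 205 to the 3' end against position in bktRNA1, coloured by element, with black bars over box D and box C. The tallest bar outside the boxes is nt 218 at 0.101, the loop between the boxes reaches 0.0526, and the stem on both sides of it lies near 0 apart from nt 230 and 239.

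bktRNA1 held 3 exact CUGA sequences, all in the extension, and the one next to box C was the lowest. It averaged 0.00568, those at nt 185 and nt 205 averaged 0.00837 and 0.00995, and the SD within box D was 0.00482. CUGA occurred in 22 of 1237 windows of 4 nt over the 14 RNAs (1.78%). In the other 13 RNAs box D lies near the 5' end, and its mean ran from -0.000449 to 0.00250, below the value in bktRNA1. These positions are not alike. Of the nt inside the ends of those RNAs, 28.5% scored exactly 0, and box D of bktRNA133 and of bktRNA61 averaged 0. Whether zeros or the place near the end lower these means was not tested.

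Scores of exactly 0 occurred in bktRNA1 only at its first 2 and last 2 positions, which were 0 in all 14 RNAs. Inside these ends 0 of 247 nt were 0. The upper Wilson limit of this share was 1.53%, counting nucleotides as independent, although they share their libraries. bktRNA16 also had no zero inside its ends, and the other 13 RNAs together, bktRNA16 included, had 278 of 976 (28.5%). What an exact 0 stands for is not stated. bktRNA1 ranked first of 14 in mean, in highest score and in the share of nt above 0.05. That share was 7.17% against 2.24% over the other RNAs pooled and at most 6.67% in a single one. Exact zeros, 32.1% of the nt of the other RNAs pooled, counted as scores here, and ranks without them were not computed. bktRNA1 was also the longest of the 14, which gives it more nucleotides among which to find an extreme score. It was second in median, at 0.00230, and 3 other RNAs had a higher AUC of unpaired over paired nucleotides of the whole fold than its 0.689. Depth was unknown for all 14 RNAs, and its part in the number of zeros was not tested.

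**Figure D5:**
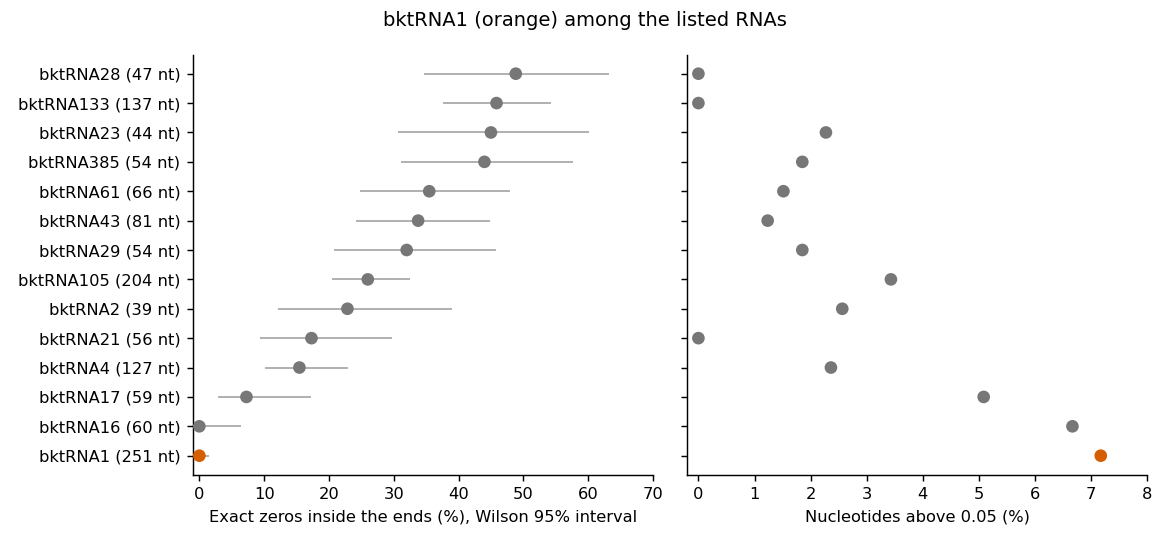
For each of the 14 RNAs (rows, with length), the left panel gives the percentage of nucleotides scored exactly 0 inside the first 2 and last 2 positions, with its Wilson 95% interval, and the right panel the percentage of all nucleotides above 0.05. bktRNA1 (orange) and bktRNA16 have no zero inside the ends, and bktRNA1 has the highest share above 0.05, 7.17%.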

How the data were processed

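The submitters' processing notes name cutadapt 3.4, STAR and the build hg38, without roles. The deposited value was 1 reactivity score per nucleotide. How the 8 libraries were combined, whether DMSO signal was subtracted, the normalization and the depth are not given in the sources used here, so negative scores and exact zeros have no stated meaning. A comparison of NAI-N3 with DMSO, and any replicate error, could not be computed. Scores were used as deposited, with positions converted to 1-based coordinates. For box C, the last 20 nt were searched for RUGAUGA with at most 2 mismatches. Structures were predicted with ViennaRNA 2.7.2. The maximum expected accuracy structure equalled the minimum free energy structure. Gene spans and strand came from RefSeq (GRCh38.p14). Nucleotides named are those in the boxes, those above 0.05 and the highest of each loop, with their neighbours. The RNA, elements and bounds were chosen with earlier results of these data known. Python 3.11.15, NumPy 2.4.6, SciPy 1.17.1, pandas 2.3.3 and matplotlib 3.10.9 were used. The sequence of the kink-turn part is not reported here.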

Additional observations from a re-analysis of the deposited data

How the results depend on the processing

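No paired analysis was possible because the deposited scores are not given by library, and no replicate could be left out for the same reason. Of 59 recomputed values, 46 kept their direction and moved by less than the standard error over nucleotides (ranks were judged by direction alone, counts within 1.5 times), 6 moved and 7 reversed. Of these 46, 2 used a structure identical to the first and 5 left out the same nt as another setting, which leaves 39 of 52 separate recomputed values. The H/ACA part minus the extension, 0.00145 in means, was 0.000366 without its highest nt and reversed with medians (-0.00324), scores capped at the 95th percentile (-0.000193), ranks (-0.119) and G and C only (-0.000355). The standard error over nucleotides, 0.00256, exceeds this difference, so the fall to 0.000366 is still among the 46. Hairpin loops minus stems, at 0.00965 with both parts folded apart, is among them too. Box C minus the rest, -0.00822, reversed with medians (0.000780). Box D minus the rest, -0.00541, reversed with medians (0.00166) and ranks (0.0982). Hairpin loops minus stems, 0.0143, moved to 0.00894 with medians, and unpaired minus paired, 0.00600, to 0.0147 in the H/ACA layout, which was chosen after the data were seen. The peak count fell from 15 to 3 in the H/ACA part and from 3 to 1 in the extension at a bound of 0.10, and the extension had 8 at 0.03. The share of zeros was 0 without the first 2 and last 2 nt. The causes were not tested. What depth limits could not be measured.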

Other observations

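By base, the mean score over the whole of bktRNA1 was lowest at C, but the parts differed. The mean was 0.00678 ± 0.0171 (SD over 53 nt) at C, 0.0111 ± 0.0185 (81 nt) at U, 0.0125 ± 0.0201 (55 nt) at A and 0.0132 ± 0.0288 (62 nt) at G. In the H/ACA part C averaged 0.00491 (29 nt), which includes C115 at -0.0257, and the other bases from 0.0123 to 0.0146. In the extension C averaged 0.00904 (24 nt), beside U at 0.00908, A at 0.0111 and G at 0.0116. Unpaired C of the extension averaged 0.0199 (8 nt) in the H/ACA layout, the highest of the unpaired bases there. Over the whole RNA in that layout, paired C averaged 0.00125 (35 nt), or 0.00204 without C115. Paired U averaged 0.00352 (35 nt), paired A 0.00600 (26 nt) and paired G 0.00705 (44 nt). Paired A and paired G each include 1 nt above 0.05, which raises their means, while paired C and paired U include none. Unpaired C averaged 0.0175 (18 nt), close to unpaired A at 0.0184 (29 nt) and unpaired U at 0.0168 (46 nt). Unpaired G averaged 0.0282 (18 nt), which includes G128. Of the 18 nt above 0.05, 7 were U, 4 were A, 4 were G and 3 were C, or 8.64%, 7.27%, 6.45% and 5.66% of each base.

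Paired bases at the end of a helix had a somewhat higher mean than those inside. In the H/ACA layout the mean was 0.00550 ± 0.0102 (54 nt, median 0.00166) at helix ends and 0.00391 ± 0.0131 (86 nt, median 0.000394) inside. In the whole fold it was 0.0114 ± 0.0281 (56 nt, median 0.00149) and 0.00691 ± 0.0180 (94 nt, median 0.00069). The helix ends of the whole fold include G128 and G145. There 3 nt at helix ends passed 0.05, against 4 inside. The differences in means are smaller than the SD and were not tested.

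Negative scores lay mostly in the H/ACA part, with 30 of 34, where that part has 146 nt and the extension 105. In the H/ACA layout 30 of 34 lay in stems, where 140 nt of the RNA were paired and 111 unpaired. That layout was chosen after the scores had been seen. C115 stood apart at -0.0257, and the next lowest was -0.00145 at U27. The median negative score was -0.000169.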
